A study of Mus musculus with 21 samples.

Results

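Mpo, Prtn3, Elane, Ctsg and Ms4a3 are 5 genes of neutrophil precursors that were followed across mouse spleen cell populations. They were chosen as the rows of the deposited expression table that carry these symbols, 5 of 14273 genes, and they had been proposed with their levels in these libraries in view. Their levels are therefore described here with sizes and errors and without tests. RNA was sequenced from C57BL/6 spleen in 7 groups of 3 libraries. Cells positive for both Ter119 and CD71, the surface antigens by which erythroid precursors are sorted, were split into CD45+ and CD45- fractions. Both fractions were taken from hosts of 3 kinds, namely anemic mice, neonates and mice that carried a tumor. The seventh group, MDSC (myeloid-derived suppressor cells), came from tumor hosts by a sort for CD11b and Gr1. The labels name no tumor line, no agent of anemia, no age or sex of any mouse and no number of animals, and they list no genetic change in any group. Whether replicate libraries are separate animals is also not stated, so the spread between libraries may be technical.

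Neutrophils build their granules in order, and the primary or azurophil granules come first, at the promyelocyte stage in the marrow. Transcription of the primary granule genes is strong in granulocyte-monocyte progenitors and promyelocytes and shuts off before the secondary granule proteins are made, so mature neutrophils carry the proteins with little of the RNA. Mpo encodes myeloperoxidase, which makes hypochlorous acid. Prtn3 (proteinase 3), Elane (neutrophil elastase) and Ctsg (cathepsin G) encode the serine proteases of the same granule. Ms4a3 encodes a membrane protein with 4 membrane-spanning stretches, whose expression marks granulocyte-monocyte progenitors, and it is not itself a granule enzyme.

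All 5 genes have a promoter window in the RefSeq table (build GRCm38.p6; the deposited values were made on mm8, so these positions apply to the sequences only). Because the 5 genes moved together, the windows are shown with the letters of 5 promoter motifs in capitals where they occur. The motifs were GAGGAA (PU.1), TAACNG (MYB), TGTGGT (RUNX), TTNNGCAA (C/EBP) and, for the box bound by TBP, TATAAA, searched on both strands of 300 bases, from 250 before the start of transcription to 50 after it. For 4 genes the 250 bases before the start are printed, Mpo from chr11:87793534-87793783 (+), Prtn3 from chr10:79879417-79879666 (+), Elane from chr10:79886062-79886311 (+) and Ctsg from chr14:56102575-56102824 (-). For Ms4a3 the printed stretch is the last 30 bases of the window, chr19:11640802-11640831 (-), which lie after the start and hold its only matches.
Mpo: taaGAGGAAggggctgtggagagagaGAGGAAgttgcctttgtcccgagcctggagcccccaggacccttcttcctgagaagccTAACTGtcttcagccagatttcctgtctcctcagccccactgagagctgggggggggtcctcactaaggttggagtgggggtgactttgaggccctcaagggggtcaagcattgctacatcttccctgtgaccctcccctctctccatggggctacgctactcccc
Prtn3: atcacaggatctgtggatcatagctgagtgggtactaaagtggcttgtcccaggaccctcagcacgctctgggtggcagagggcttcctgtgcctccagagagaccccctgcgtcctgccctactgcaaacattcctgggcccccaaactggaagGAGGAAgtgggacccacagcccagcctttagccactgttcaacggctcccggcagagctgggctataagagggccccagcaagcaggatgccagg
Elane: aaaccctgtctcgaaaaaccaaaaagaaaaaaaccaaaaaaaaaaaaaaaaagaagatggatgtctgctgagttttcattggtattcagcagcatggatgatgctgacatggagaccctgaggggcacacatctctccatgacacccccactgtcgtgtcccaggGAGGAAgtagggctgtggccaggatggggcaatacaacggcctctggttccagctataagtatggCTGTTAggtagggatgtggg
Ctsg: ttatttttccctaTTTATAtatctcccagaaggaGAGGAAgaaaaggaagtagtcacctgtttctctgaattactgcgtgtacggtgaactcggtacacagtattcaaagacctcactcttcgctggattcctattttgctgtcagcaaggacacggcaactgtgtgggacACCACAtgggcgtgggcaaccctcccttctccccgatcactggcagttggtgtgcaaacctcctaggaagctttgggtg
Ms4a3: tccactggacttgctGAGGAATTGCACAAa
GAGGAA on the printed strand occurred in all 5 windows, at -247 and -224 in Mpo, -95 in Prtn3, -85 in Elane, -216 in Ctsg and 36 in Ms4a3, counted from the start of transcription to the first base of the match. On either strand the same letters occur in 28.3% of 32851 RefSeq promoter windows of this length. The MYB letters occurred in Mpo (-166) and Elane (-20), against 23.3% of all windows. The RUNX letters occurred in Ctsg alone of the 5 (-79), against 16.8%, and the TATAAA letters in Ctsg alone on the opposite strand (-237), against 13.6%. The C/EBP letters occurred in Ms4a3 alone (42), directly after GAGGAA and without overlapping it, against 10.8%. These are matches of letters and no binding was measured.

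Values in the deposited table are on a log2 scale whose unit is not named. They were taken out of the log, and a blank was taken as 0 and is called listed at 0. A level below is such a value, and because the unit and the gene lengths behind it are unknown, levels are compared between libraries and not between genes. The sums over all genes ran from 227942 to 349254 per library, and read depth is unknown. Replicates of a group correlated at r = 0.915 to 0.977 over genes. Ptprc, which encodes CD45, stood at 86.7 to 477 in the 9 CD45+ libraries and at 1.23 to 5.50 in the 9 CD45- libraries, matching the CD45 labels. Tfrc, which encodes CD71, stood at 326 to 1495 in CD45- libraries, 40.6 to 161 in CD45+ libraries and 36.0 to 54.4 in MDSC, which were not sorted for CD71. The differences from MDSC were 0.30 ± 0.44 in neonatal CD45+ cells (adjusted p = 0.67, limma) and 1.13 ± 0.44 in tumor CD45+ cells (adjusted p = 0.12), so Tfrc gives no check of the CD71 sort in those fractions. Itgam, which encodes CD11b, stood at 197 to 270 in MDSC. It was also present in the CD45+ fractions of tumor-bearing mice (67.6 to 130) and neonates (54.1 to 106), with 10.4 to 48.0 in anemia. The 10 erythroid genes listed together made 1.09% to 12.1% of the summed values in CD45+ libraries, 9.87% to 38.6% in CD45- libraries and 0.0223% to 0.377% in MDSC. The RNA is a mean over the sorted cells, so fewer cells of a type and less RNA per cell cannot be told apart.

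The primary granule genes were abundant in 3 populations, the CD45+ fraction of tumor hosts, the same fraction of neonates, and MDSC. Together the 5 genes made 0.198% to 0.993% of the summed values in tumor CD45+ libraries, 0.312% to 0.647% in neonatal CD45+ libraries and 0.376% to 0.796% in MDSC. In anemia the CD45+ fraction had 0.00656% to 0.0125%. The CD45- fractions had 0.00685% or less.

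Mpo, the granule's peroxidase, stood at 965, 719.9 and 229 in the 3 tumor CD45+ libraries (mean 638 ± 375, SD, n = 3). In neonatal CD45+ cells it stood at 761, 933 and 421 (705 ± 260.4), and in MDSC at 783, 626 and 445 (618 ± 169). The 3 groups overlapped, and each had its lowest level in replicate 3. In anemia CD45+ cells Mpo ranged from 5.28 in replicate 3 to 12.9 in replicate 1 (10.1 ± 4.17), below every library of those 3 groups. The CD45- fractions had 8.59, 4.79 and 0.260 in tumor-bearing mice, 6.69, 3.22 and 1.80 in neonates, and 0.152, 0.0622 and 0.0797 in anemia. Anemia CD45- was the lowest of the 7 groups, with no overlap with any other.

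Prtn3 followed the same order except at the top. Its levels were 395, 512 and 173 in MDSC (359.8 ± 172), 455, 426 and 79.5 in tumor CD45+ cells (320.2 ± 209), and 229.8, 330.1 and 153 in neonatal CD45+ cells (238 ± 88.6). In anemia CD45+ cells it stood at 6.37, 5.26 and 3.59 (5.07 ± 1.40). Tumor CD45- libraries had 4.69, 4.67 and 0.0428, and the third of them was about as low as the anemia CD45- libraries, with 0.180, 0.217 and 0.0448. Neonatal CD45- libraries had 4.35, 1.48 and 0.571.

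Elane, which lies next to Prtn3 on chromosome 10, stood at 435, 329 and 81.3 in tumor CD45+ cells (282 ± 181) and at 329.6, 281 and 237 in MDSC (283 ± 46.1). Neonatal CD45+ cells had 249.8, 329.9 and 98.7 (226 ± 117). These 3 groups overlapped, and MDSC had the narrowest spread. Anemia CD45+ cells had 6.65, 5.35 and 2.79 (4.93 ± 1.96), tumor CD45- cells 4.06, 2.50 and 0.185, and neonatal CD45- cells 4.32, 1.80 and 0.447. In anemia CD45- cells Elane stood at 0.173 and 0.0927 in replicates 1 and 2 and was listed at 0 in replicate 3.

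Ctsg differed from the other proteases in the neonate. It stood at 82.6, 77.5 and 81.3 in neonatal CD45+ cells (80.5 ± 2.68), below every MDSC library (496, 246 and 138; 293 ± 184). Tumor CD45+ cells had 621, 289 and 54.4 (322 ± 285). Its highest tumor CD45+ library was 11.4 times its lowest, replicate 3, and that library alone lay below the neonatal levels. Anemia CD45+ cells had 3.36, 3.27 and 1.75 (2.79 ± 0.904). The CD45- fractions had 4.95, 2.48 and 0.0414 in tumor-bearing mice and 1.22, 0.308 and 0.205 in neonates, and Ctsg was listed at 0 in all 3 anemia CD45- libraries.

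Ms4a3 shared the neonatal feature of Ctsg. It stood at 62.7, 49.9 and 46.3 in neonatal CD45+ cells (53.0 ± 8.66), again below every MDSC library (169.5, 129 and 101; 133 ± 34.6), and at 196, 154 and 31.3 in tumor CD45+ cells (127 ± 85.4). In anemia CD45+ cells it stood at 1.24, 0.642 and 1.56 (1.15 ± 0.464). Tumor CD45- cells had 1.64, 1.13 and 0.0597 and neonatal CD45- cells 0.485, 0.123 and 0.508. Of the anemia CD45- libraries only replicate 3 had a value, 0.0149, and the others were listed at 0.

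**Figure D1:**
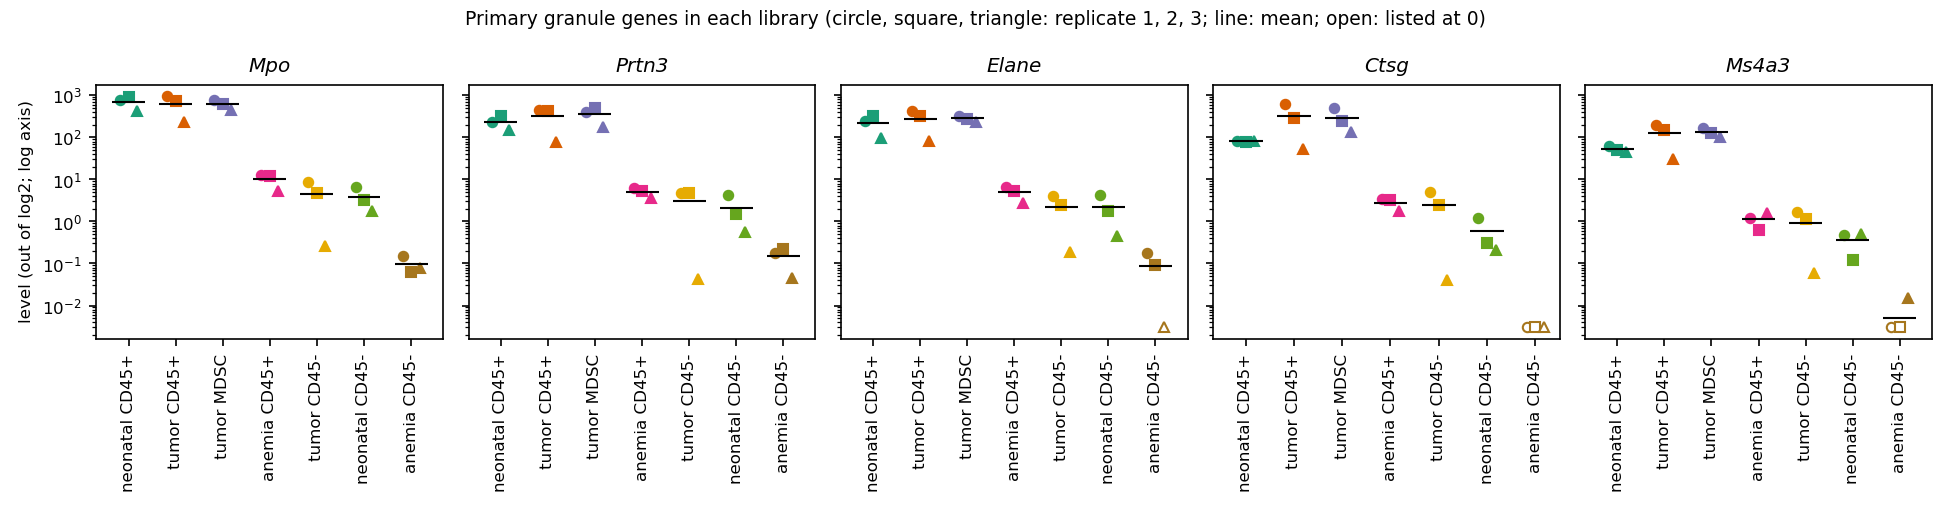
Level of each of the 5 primary granule genes (y axis, deposited value taken out of log2, log scale) in every library of the 7 groups (x axis); circles, squares and triangles are replicates 1, 2 and 3, lines are means, and open symbols at the bottom are libraries listed at 0. Tumor CD45+, neonatal CD45+ and MDSC libraries lie far above anemia CD45+, and the tumor CD45+ and CD45- triangles lie below their circles and squares for all 5 genes.

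Ordered by group mean, the break came in the same place for all 5 genes. Neighbours among tumor CD45+, neonatal CD45+ and MDSC overlapped, apart from MDSC and neonatal CD45+ for Ctsg. The lowest of these 3 groups did not overlap anemia CD45+ for any of the 5 genes. Anemia CD45+ overlapped tumor CD45-, and tumor CD45- overlapped neonatal CD45-, while anemia CD45- lay below neonatal CD45- without overlap. The tumor CD45- libraries were widely spread and no differences were fitted between these neighbours, so overlap does not show that their levels were equal. The mean level in anemia CD45+ cells was 1.58% of that in tumor CD45+ cells for Mpo, 1.58% for Prtn3, 1.75% for Elane, 0.869% for Ctsg and 0.902% for Ms4a3. Set against neonatal CD45+ cells the share was 1.43% for Mpo and 3.47% for Ctsg, the lowest and highest of the 5.

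Within each status, the CD45+ libraries lay above the CD45- libraries for 5 of 5 genes. Of all 11290 genes tested, 54% did so in tumor-bearing mice, 50.3% in anemia and 55.8% in neonates. On the log2(level + 1) scale the difference in tumor-bearing mice was 7.04 ± 0.62 for Mpo (SE), 6.37 ± 0.61 for Elane, 6.28 ± 0.67 for Prtn3, 6.27 ± 0.68 for Ctsg and 5.78 ± 0.47 for Ms4a3, where the median over all genes was 0.75. Without tumor CD45- replicate 3 the Mpo difference was 6.19, and without tumor CD45+ replicate 3 it was 7.66. In neonates the differences ran from 5.30 ± 0.47 for Ms4a3 to 7.22 ± 0.62 for Mpo (median of all genes 0.74). In anemia they ran from 1.07 ± 0.47 for Ms4a3 to 3.25 ± 0.62 for Mpo (median 0.67). Levels under 1 weigh little on this scale. With 0.1 added in place of 1 the anemia differences were 3.49 for Ms4a3 and 5.60 for Mpo. With 10 added they were smaller, 0.15 for Ms4a3 and 0.97 for Mpo. They were also smaller under median-ratio scaling (0.86 and 2.80) and under quantile normalization (0.52 and 2.41). The size of the anemia differences therefore depended on the setting.

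As a ratio of group means, the CD45- level was a small percentage of the CD45+ level. It was 0.713% for Mpo, 0.743% for Ms4a3, 0.775% for Ctsg, 0.798% for Elane and 0.978% for Prtn3 in tumor-bearing mice. In neonates the 5 ratios ran from 0.554% for Mpo to 0.967% for Elane, and in anemia from 0% for Ctsg to 2.90% for Prtn3. These ratios hide a wide spread in tumor-bearing mice, where the highest CD45- library was 21.9 (Elane) to 120 (Ctsg) times the lowest, replicate 3. Summed lists of other leukocyte genes had ratios from below to well above those of the 5 genes. In tumor-bearing mice and neonates they were 0.556% and 1.11% for secondary and tertiary granule genes, 0.995% and 1.80% for B cell genes, and 1.02% and 2.62% for T and NK cell genes. They were 3.12% and 0.695% for eosinophil genes, 5.18% and 1.42% for mast cell and basophil genes, 1.84% and 4.80% for promyelocyte and progenitor genes, 4.33% and 4.86% for other primary granule contents, and 6.41% and 9.17% for monocyte and macrophage genes. Whether the low CD45- levels come from CD45+ cells in that fraction was not tested.

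The neonatal and tumor CD45+ fractions overlapped for 5 of 5 genes, where 11.5% of all genes lay higher in the neonate without overlap and 8.12% lower (limma called 4.82% higher and 2.55% lower). Neonatal minus tumor differences were 0.30 ± 0.62 for Mpo, -0.14 ± 0.67 for Prtn3, -0.17 ± 0.61 for Elane, -1.40 ± 0.68 for Ctsg and -0.89 ± 0.47 for Ms4a3. Single libraries weighed on all of them. Without tumor CD45+ replicate 3 they were -0.32 for Mpo, -0.95 for Prtn3, -0.91 for Elane, -2.38 for Ctsg and -1.70 for Ms4a3. These were the lowest values with 1 library left out. The highest were 0.72 for Mpo, 0.30 for Prtn3, 0.34 for Elane, -0.64 for Ctsg and -0.40 for Ms4a3. The signs for Mpo, Prtn3 and Elane therefore depended on the library left out. Against MDSC, 2 of 5 genes were lower without overlap, Ctsg (-1.66 ± 0.68) and Ms4a3 (-1.29 ± 0.47), where 12.9% of all genes were lower and 33.7% higher. Mpo (0.15 ± 0.62), Prtn3 (-0.53 ± 0.67) and Elane (-0.48 ± 0.61) overlapped. Neonatal minus anemia CD45+ differences ran from 4.45 ± 0.68 for Ctsg to 6.00 ± 0.62 for Mpo, with 5 of 5 genes higher without overlap. Of all genes, 22.3% were higher and 18.4% lower in that way, and limma called 11.8% higher and 9.78% lower. These comparisons share the neonatal libraries.

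Tumor CD45+ cells and MDSC, both from tumor-bearing mice, overlapped for 5 of 5 genes, where 26.2% of all genes were higher and 8.16% lower without overlap. The differences, tumor CD45+ minus MDSC, lay between -0.15 ± 0.62 for Mpo and -0.40 ± 0.47 for Ms4a3. Without tumor CD45+ replicate 3 all 5 were above 0, from 0.41 for Ms4a3 to 0.72 for Ctsg. The sign therefore depended on that library.

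Replicate 3 had the lowest level of 5 of 5 genes in tumor CD45+, tumor CD45- and MDSC, and of 4 of 5 genes in anemia CD45+, neonatal CD45+ and neonatal CD45-. In tumor CD45+ replicate 3 some lists of other leukocytes were high and others low. The 7 B cell genes, all measured, made 0.218% of its summed values against 0.0556% and 0.0744% in replicates 1 and 2. For 11 T and NK cell genes the shares were 0.0434% against 0.00782% and 0.0120%, and for 12 monocyte and macrophage genes 0.474% against 0.0996% and 0.111%. The eosinophil genes were low there, with 0.00798% against 0.0345% and 0.0487%, as were the secondary and tertiary granule genes, with 1.58% against 2.77% and 2.89%. The mast cell and basophil genes stood at 0.0177% against 0.00967% and 0.0137%. No gene of the B cell or T and NK cell lists was at 0 in all libraries of that group. Their part in the low primary granule levels was not tested.

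To set the profiles side by side, each other gene was expressed as a percentage of Mpo in the same library. Such percentages depend on the unit and are read between libraries only. They cannot tell a lower level of the gene from a higher level of Mpo. Mpo alone of the primary granule genes had its highest group mean in neonatal CD45+ cells. Ctsg stood at 10.8%, 8.30% and 19.3% of Mpo in neonatal CD45+ libraries and at 18.2%, 9.55% and 11.4% in neonatal CD45- libraries. In MDSC it stood at 63.4%, 39.3% and 31.0%, in tumor CD45+ libraries at 64.4%, 40.1% and 23.7%, and in anemia CD45+ libraries at 26.1%, 27.2% and 33.2%. No neonatal CD45+ library reached the lowest of these other groups. Ms4a3 stood at 8.24%, 5.35% and 11.0% in neonatal CD45+ libraries and at 13.6% to 21.4% in tumor CD45+ and 20.6% to 22.6% in MDSC, without overlap. The anemia CD45+ libraries, at 9.60%, 5.34% and 29.5%, overlapped the neonatal ones. Elane as a percentage of Mpo was lower in the neonate by a smaller step. It stood at 23.5% to 35.4% in neonatal CD45+ libraries against 42.1% to 53.3% in MDSC and 35.5% to 45.7% in tumor CD45+. Prtn3 in neonatal CD45+ libraries (30.2% to 36.4%) overlapped tumor CD45+ (34.7% to 59.2%) and lay below MDSC (38.8% to 81.8%). Over all 21 libraries the 10 pairs of genes correlated at r = 0.972 to 0.996 on log2(level + 1), which is carried by the gap between groups.

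**Figure D2:**
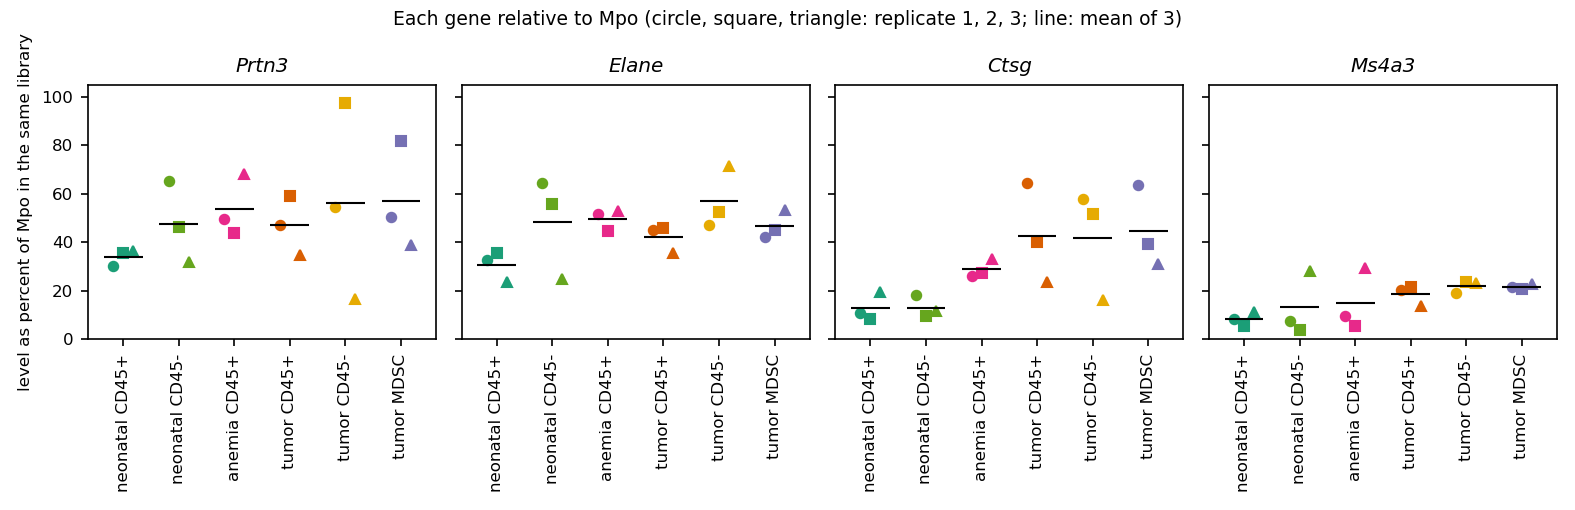
Level of Prtn3, Elane, Ctsg and Ms4a3 as a percentage of Mpo in the same library (y axis) for 6 groups (x axis); circles, squares and triangles are replicates 1, 2 and 3 and lines are means. Ctsg lies at 8.30% to 19.3% in neonatal CD45+ libraries and at 23.7% to 64.4% in tumor CD45+ libraries; anemia CD45- is left out because its levels are near 0.

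Other contents of the primary granule were also higher in CD45+ cells, in all 3 statuses. Of 12 such genes listed, 11 were in the table and tested with limma, with p-values adjusted over all genes. All 11 rose in CD45+ against CD45- cells in tumor-bearing mice and in neonates, and 10 did so in anemia, where limma called 51.2%, 50.6% and 48% of all genes higher. Their median differences were 3.08, 3.62 and 2.59. Prss57, which encodes a further serine protease of this granule and lies 5 genes from Prtn3, had a profile like that of the 5 genes. It stood at 7.51, 5.99 and 3.38 in tumor CD45+ cells, 8.88, 5.97 and 5.83 in neonatal CD45+ cells and 0.0994, 0.0703 and 0.132 in anemia CD45+ cells, and was 2.82 ± 0.29 higher in neonatal than in anemia CD45+ cells (adjusted p = 8.6e-07). Lyz2, lysozyme, which monocytes and macrophages also make, kept 49.8 to 163 in anemia CD45+ cells against 98.0 to 220.2 in tumor CD45+ cells, and its neonatal minus anemia difference of 1.24 ± 0.46 had an adjusted p of 0.063. In all, 6 of the 11 rose in neonatal against anemia CD45+ cells (11.8% of all genes), and 1 of 11 in neonatal against tumor CD45+ cells (4.82% of all genes), or 3 with the replicate number as a block and 4 without tumor CD45+ replicate 3. That 1 was the lysosomal mannosidase Man2b1 (1.02 ± 0.26, adjusted p = 0.017), whose call 5 of 30 alternative settings ended, with adjusted p of 0.063 to 0.10.

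Genes that process, store and release granule proteins were measured as 12 genes, of which 12 rose in CD45+ cells of tumor-bearing mice, 12 in neonates and 10 in anemia, against 51.2%, 50.6% and 48% of all genes. Under median-ratio scaling the counts were 8, 8 and 8, where 3693, 3381 and 3312 of all genes were called higher. Ctsc, cathepsin C, which removes the dipeptide that keeps the granule serine proteases inactive, stood at 171, 89.3 and 157 in neonatal CD45+ cells and at 33.4, 31.7 and 36.3 in MDSC, a difference of 1.96 ± 0.45 (adjusted p = 0.0032). In tumor CD45+ cells Ctsc stood at 29.3, 32.4 and 131, so that its highest library was replicate 3, where the RNA of its substrates was lowest. Anemia CD45+ cells had 31.0, 32.2 and 54.2. The monocyte and macrophage genes were also highest in tumor CD45+ replicate 3, at 0.474% of summed values against 0.0996% and 0.111%. They were higher in neonatal CD45+ libraries (0.269% to 0.591%) than in MDSC (0.0781% to 0.1%). Their part in the Ctsc levels was not tested. Srgn, serglycin, the proteoglycan on which the proteases are stored, was 439, 339 and 164 in tumor CD45+ and 171, 177 and 198 in neonatal CD45+ cells. Its neonatal minus tumor difference of -0.67 ± 0.37 had an adjusted p of 0.38, and without replicate 3 in every group it was -1.14 (adjusted p = 0.0073). The neonatal minus tumor CD45+ difference of Ctsc was 1.40 ± 0.45 (adjusted p = 0.071). It passed with the replicate number as a block (adjusted p = 0.037) and was 2.09 without tumor CD45+ replicate 3 (adjusted p = 0.00091). Against MDSC, 3 of 12 fell in neonatal CD45+ cells (7.56% of all genes), among them Stxbp2, which encodes a protein of granule fusion (-1.13 ± 0.25, adjusted p = 0.0025). The others, Rab27a (-1.08, adjusted p = 0.028) and Unc13d (-1.09, adjusted p = 0.017), act in granule transport and docking, and 8 and 3 of 30 alternatives ended their calls.

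Inhibitors of the serine proteases moved in both directions between neonatal CD45+ cells and MDSC. Of 5 listed, 4 were tested, and 4 rose in CD45+ cells of tumor-bearing mice, 4 in neonates and 2 in anemia, against 51.2%, 50.6% and 48% of all genes, so the share in anemia was near that of all genes. Serpinb1a, an inhibitor of elastase, cathepsin G and proteinase 3, stood at 199, 143 and 56.2 in tumor CD45+ cells, 329, 207 and 339.8 in MDSC, 69.4, 36.9 and 62.1 in neonatal CD45+ cells and 13.3, 21.4 and 18.2 in anemia CD45+ cells. Its neonatal CD45+ minus MDSC difference was -2.37 ± 0.37 (adjusted p = 9.4e-05). Slpi, a secreted inhibitor of elastase and cathepsin G, fell by 1.84 in neonatal CD45+ cells against MDSC (adjusted p = 0.0049). In the same comparison Serpinb6a, an inhibitor of cathepsin G, rose by 1.93 ± 0.50 (adjusted p = 0.0076). In anemia CD45+ cells Slpi stood at 17.3, 19.2 and 84.9 and neonatal CD45+ cells had 22.8, 14.2 and 14.4.

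Markers of the stage that makes these granules differed between neonatal CD45+ cells and MDSC, which overlapped for Mpo, Prtn3 and Elane. Of 17 tested genes of promyelocytes and granulocyte-monocyte progenitors, 17, 15 and 16 rose in CD45+ against CD45- cells in tumor-bearing, anemic and neonatal mice, against 51.2%, 48% and 50.6% of all genes. Neonatal CD45+ cells against MDSC had 4 higher and 8 lower, where limma called 18.2% of all genes higher and 7.56% lower. The 4 higher included Csf1r, the receptor of macrophage colony-stimulating factor (3.96 ± 0.59, adjusted p = 6.1e-05), and Cd34 (2.83 ± 0.27, adjusted p = 3.4e-07), with Kit, the stem cell factor receptor (1.88 ± 0.46, adjusted p = 0.0048). The 8 lower included F13a1 (-1.66 ± 0.29, adjusted p = 0.00025) and Hk3 (-1.64 ± 0.35, adjusted p = 0.0015). Csf1r is also a macrophage gene, and 7 of 12 monocyte and macrophage genes rose in the same comparison, Csf1r among them, while 2 fell. Adgre1, which encodes the macrophage antigen F4/80, rose by 4.41 ± 0.59 (adjusted p = 1.7e-05), and C1qb, a complement subunit made by macrophages, by 4.03 ± 0.64 (adjusted p = 0.00012). The 12 genes made 0.269% to 0.591% of the summed values in neonatal CD45+ libraries and 0.0781% to 0.1% in MDSC. Of 9 tested mast cell and basophil genes, 7 also rose in neonatal CD45+ cells against MDSC, against 18.2% of all genes. The part of either list in the differences of the progenitor list, Cd34 and Kit included, was not tested. Cd34 stood at 15.6, 15.9 and 11.1 in neonatal CD45+ cells, 3.87, 3.55 and 3.90 in tumor CD45+ cells, 1.67, 1.89 and 0.222 in MDSC and 1.10, 0.469 and 0.517 in anemia CD45+ cells. Its neonatal minus tumor difference was 1.66 ± 0.27 (adjusted p = 0.00044), with an adjusted p of 0.083 when 0.1 was added in place of 1.

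Transcription factors known to act on primary granule genes were listed as 10 genes. Of the 8 tested, 6 rose in CD45+ cells in tumor-bearing mice, 6 in neonates and 5 in anemia, against 51.2%, 50.6% and 48% of all genes. Spi1, which encodes PU.1, stood at 65.7, 111 and 42.8 in tumor CD45+, 101, 89.5 and 59.8 in neonatal CD45+, 158, 163 and 108 in MDSC and 12.3, 18.6 and 26.4 in anemia CD45+ cells. It was the 1 of 8 called between neonatal and anemia CD45+ cells (2.10 ± 0.32, adjusted p = 7.8e-05), a share near the 11.8% of all genes called higher there. Myb, a factor of progenitors, stood at 22.5 to 39.9 in tumor CD45+, 23.2 to 40.6 in neonatal CD45+, 17.8 to 32.6 in MDSC and 11.7 to 13.4 in anemia CD45+ cells, with a neonatal minus anemia difference of 1.21 ± 0.45 (adjusted p = 0.059). It passed under 8 of 30 alternatives, among them quantile normalization (1.34, adjusted p = 0.013). Cbfb, the partner of RUNX factors, differed by 0.49 ± 0.29 there (adjusted p = 0.26). Between neonatal and tumor CD45+ cells Spi1 differed by 0.26 (adjusted p = 0.78). Irf8, a factor of monocyte fate, was higher in neonatal CD45+ cells than in MDSC (2.46 ± 0.39, adjusted p = 0.00011). Gfi1 was lower there (-1.24 ± 0.38, adjusted p = 0.022). Each was 1 of 8 in its direction, where 18.2% of all genes were called higher and 7.56% lower. Irf8 was also higher in tumor CD45+ cells than in MDSC (1.69 ± 0.39, adjusted p = 0.0097) and Spi1 lower (-1.04 ± 0.32, adjusted p = 0.046). Of all genes, 8% and 1.82% were called higher and lower there.

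Genes close to the 5 on the chromosome were followed from a list kept to those within 10 genes in the RefSeq order. The list was a chosen part of that window, with leukocyte genes such as Epx, Mcpt8 and Ms4a2 among it. It left out others, such as Trim37, Srsf1 and Polrmt, so its counts do not describe the whole neighbourhood. Of 21 tested neighbours, 17, 13 and 20 rose in CD45+ against CD45- cells in tumor-bearing, anemic and neonatal mice, against 51.2%, 48% and 50.6% of all genes. Under quantile normalization 10 and 6 did so in tumor-bearing and anemic mice, where 2682 and 2725 of all genes were called higher. Plppr3, next to Prtn3, had the same profile as the 5 genes, with 15.5, 15.1 and 3.49 in tumor CD45+, 9.88, 7.96 and 7.16 in neonatal CD45+, 14.6, 15.4 and 6.72 in MDSC and 0.349, 0.322 and 0.164 in anemia CD45+ cells. The other flank differed: Cfd, next to Elane, was at 0.302 or less in every library. Near Mpo and Ctsg lie genes of other granulocytes. Epx, the eosinophil peroxidase gene 3 genes from Mpo, stood at 56.1, 114 and 62.6 in neonatal CD45+ cells and at 5.74, 6.19 and 0.822 in tumor CD45+ cells (4.07 ± 0.61 higher in the neonate, adjusted p = 0.00021). Mcpt8, a basophil protease gene beside Ctsg, stood at 31.2, 45.9 and 30.7 against 8.20, 6.39 and 4.28 (2.35 ± 0.36, adjusted p = 0.00023).

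The 8 genes outside the set whose profile was nearest to the mean of the 5 over the 21 libraries were Adgrg3 (r = 0.986), Plppr3 (0.982), Rab44 (0.981), Prom1 (0.976), Mapk13 (0.975), Fcnb (0.975), Gpc1 (0.974) and Serpine2 (0.973), out of 6545 genes ranked. Because they were picked by this likeness, their levels are a description. Fcnb, ficolin B, a soluble pattern receptor of neutrophil precursors, stood at 50.7, 49.9 and 34.9 in tumor CD45+, 94.0, 75.9 and 56.7 in neonatal CD45+, 67.5, 63.5 and 122 in MDSC and 2.24, 1.25 and 2.07 in anemia CD45+ cells. Adgrg3, an adhesion receptor of granulocytes, stood at 38.0, 33.2 and 7.95 in tumor CD45+ and 1.82, 1.08 and 1.71 in anemia CD45+ cells. Prom1, the progenitor surface protein CD133, stood at 45.0, 44.3 and 48.5 in MDSC and 11.9, 17.5 and 12.8 in neonatal CD45+ cells, without overlap, as Ctsg and Ms4a3 were.

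**Figure D3:**
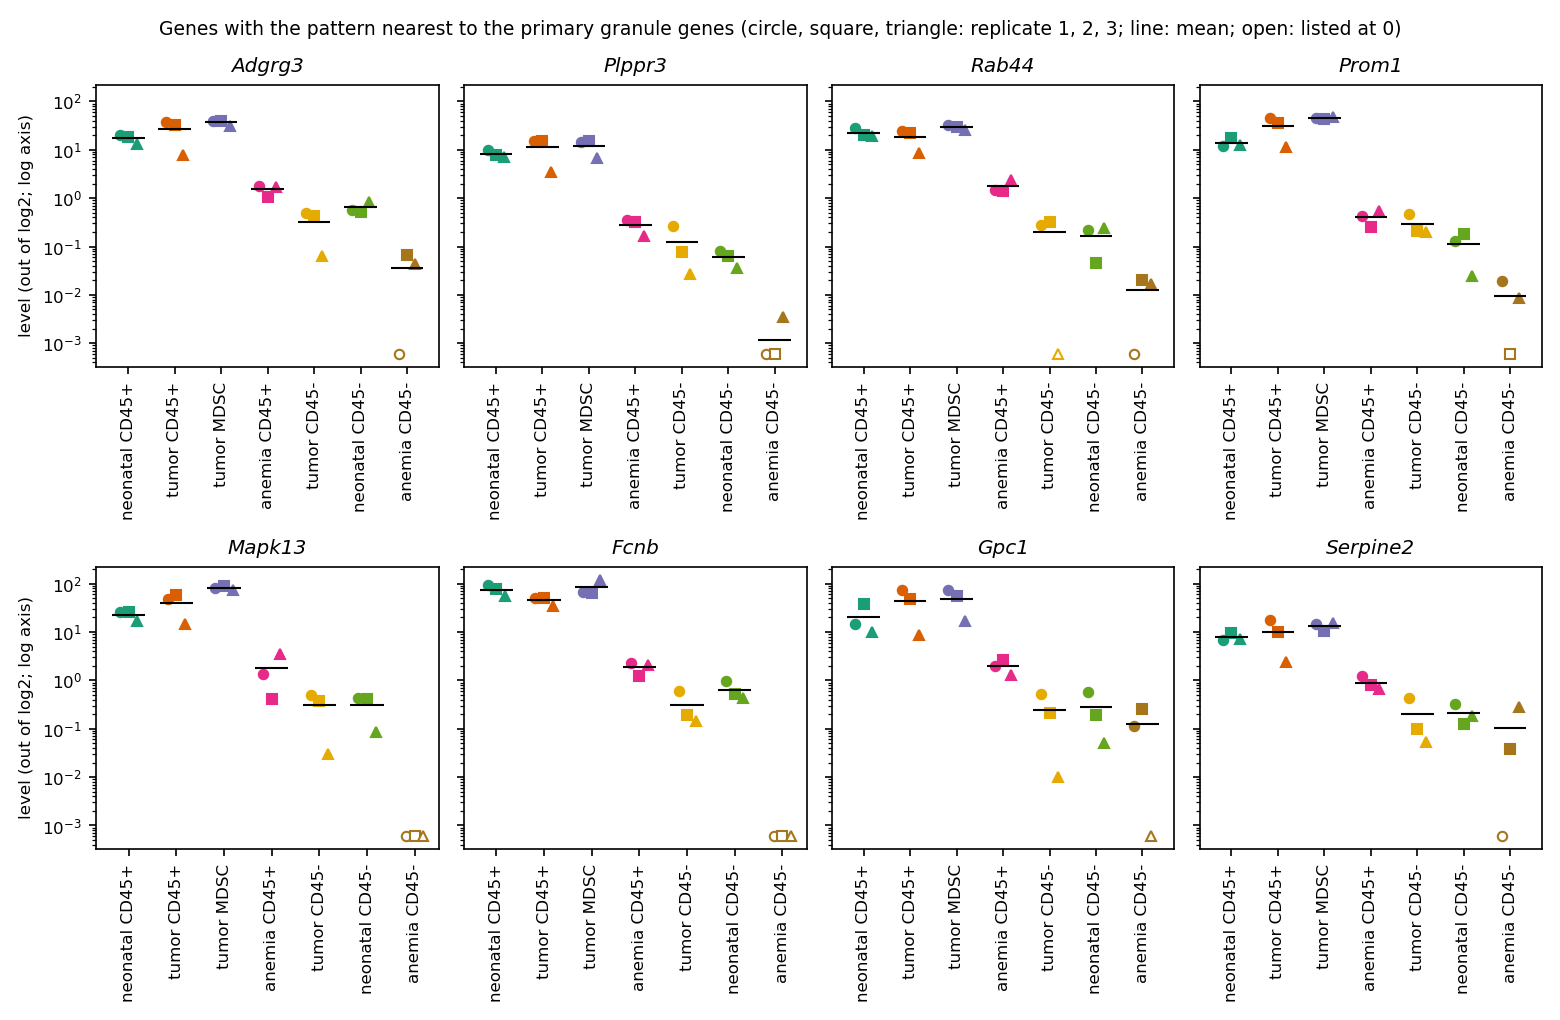
Level (y axis, deposited value taken out of log2, log scale) of the 8 genes whose profile over 21 libraries was nearest to the mean of the 5 primary granule genes, in every library of the 7 groups (x axis); circles, squares and triangles are replicates 1, 2 and 3, lines are means and open symbols are libraries listed at 0. All 8 lie higher in tumor CD45+, neonatal CD45+ and MDSC than in anemia CD45+ libraries, and tumor CD45+ replicate 3 is its group's lowest for all 8.

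Genes of the secondary and tertiary granules, which are made later in the same lineage, took a larger share in MDSC than in any CD45+ group. Their 12 genes made 4.82% to 7.77% of the summed values in MDSC, 1.58% to 2.89% in tumor CD45+, 1.08% to 1.70% in neonatal CD45+ and 0.0926% to 0.272% in anemia CD45+ libraries. The first 3 ranges did not overlap for MDSC against either CD45+ group, whereas the summed shares of the primary granule genes overlapped across all 3. Taken singly, Ctsg and Ms4a3 lay lower in neonatal CD45+ cells than in MDSC without overlap. The order of the 4 group means was the same as here for Prtn3, Elane and Ms4a3. Ltf, lactoferrin, stood at 1274, 1825 and 2662 in MDSC and 598, 461 and 464 in neonatal CD45+ cells (-1.86 ± 0.34, neonatal minus MDSC, adjusted p = 0.00037). In that comparison 11 of 12 fell (7.56% of all genes), and in tumor CD45+ cells against MDSC 7 of 12 (1.82% of all genes), or 2 of 12 without tumor CD45+ replicate 3. The 12 include Itgam, which encodes CD11b, an antigen by which MDSC were sorted. Limma called it lower in both comparisons (-1.69, adjusted p = 0.0035, and -1.34, adjusted p = 0.037). The sum of the 5 primary granule genes was 28.1% to 59.9% of the sum of the 12 in neonatal CD45+ libraries and 5.10% to 16.5% in MDSC. In tumor CD45+ libraries it was 12.5% to 35.8%, and in anemia CD45+ libraries 2.41% to 12.1%. The difference between the sets was not tested.

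**Figure D4:**
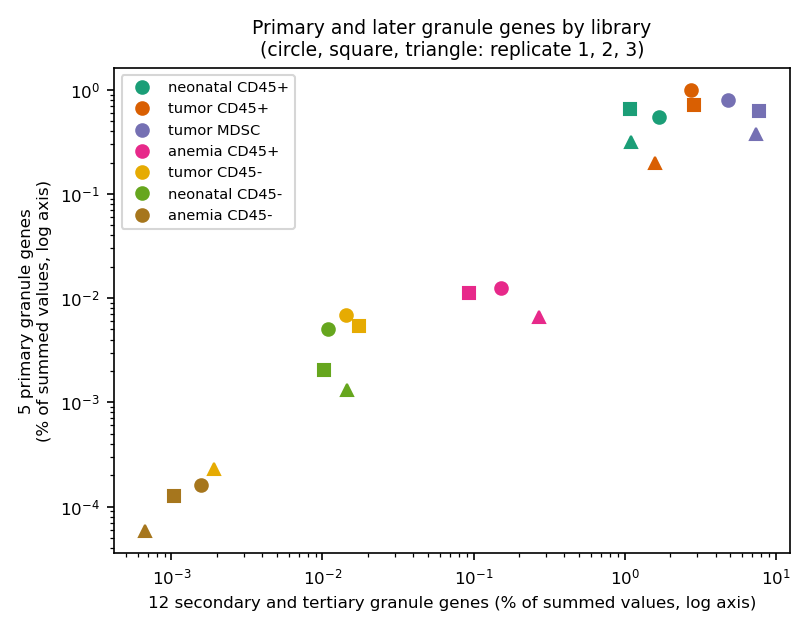
Share of the summed values taken by the 5 primary granule genes (y axis, percent, log scale) against that of 12 secondary and tertiary granule genes (x axis, percent, log scale), 1 symbol for each of the 21 libraries, colored by group with circles, squares and triangles for replicates 1, 2 and 3. MDSC libraries lie to the right of the CD45+ libraries at 4.82% to 7.77% of secondary and tertiary genes, and neonatal CD45+ libraries reach the same height at 1.08% to 1.70%.

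Markers of other cells differed between the same groups. In neonatal CD45+ libraries 7 eosinophil granule genes made 0.283% to 0.589% of the summed values, against 0.00798% to 0.0487% in tumor CD45+, 0.00184% to 0.0177% in anemia CD45+ and 0.00485% to 0.102% in MDSC. For 12 mast cell and basophil genes the share was 0.0602% to 0.129% there, against 0.00967% to 0.0177% in tumor CD45+ libraries, where Mcpt1, Mcpt2 and Tpsb2 were at 0. The B cell genes were highest in anemia CD45+ libraries (0.311% to 0.382%), where the primary granule genes were lowest among CD45+ groups. Whether these cell types have a part in the levels of the primary granule genes was not tested.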

How the data were processed

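RNA sequencing of 21 libraries was used, and per the labels' protocols a TruSeq RNA kit was applied to total RNA. Every tissue label gives spleen, although the protocol for extracting RNA mentions retinas. The submitters' processing notes name the aligner Bowtie 0.12.2 and the mouse build mm8. The quantification tool, its unit and any filter are not given in the sources used here. The authors deposited log2 values, 1 per gene and library, for 14273 genes. A value was missing in 23668 cells (7.9%), each set to 0, and 20 gene symbols read as dates. Without counts, depth and counting error are unknown.

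Values were taken out of the log and log2(value + 1) was fitted with limma 3.58.1 (trend and robust options) in R 4.3.3, with 1 mean per group over all 21 libraries. The 11290 genes that reached 1 in 3 or more libraries were tested, and Benjamini-Hochberg adjusted p-values under 0.05 over all of them, two-sided, were called. All 5 primary granule genes passed the filter, each through the groups where it is high. The code was tested on simulated data. The 5 genes and all gene lists were chosen with earlier results of these data known. Named genes are the 5, the 8 most correlated genes with a group mean of at least 10, the genes of the lists for granule contents, processing, inhibitors, progenitors, regulators and neighbours, and up to 4 of each further list. Neighbours are listed genes within 10 genes of a member in the RefSeq order, and not every gene in that window was listed.

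Alternatives were another pseudocount (0.1 or 10), no filter, median-ratio scaling, quantile normalization, haemoglobin genes left out, only the 6 libraries compared, the replicate number as a block, each library left out, and, chosen after seeing the data, all replicate 3 libraries left out. Same-numbered libraries deviated together, with every correlation over 0.1, in the 3 comparisons of CD45+ with CD45- cells, in neonatal against tumor CD45+ cells and in tumor CD45+ cells against MDSC. Libraries 1 and 2 also correlated across numbers, at 0.138 in both pairs of tumor CD45+ with CD45- cells (same-numbered 0.112 and 0.124). Between tumor and neonatal CD45+ cells those pairs stood at 0.263 and 0.132 (same-numbered 0.106 and 0.186). Numbers 1 and 2 were therefore not told apart there, while replicate 3 stood apart from them. Any pairing by number is inferred from the data and the numbers in the labels. Bpi, Serpina3g and Tpsab1 were not analysed here.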

Additional observations from a re-analysis of the deposited data

How the results depend on the processing

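Among the genes followed by name outside the 5, 1 called difference changed direction: R3hdm4, a neighbour of Prtn3, was 0.78 in anemia CD45+ against CD45- cells (adjusted p = 0.046) and -0.08 under median-ratio scaling. Under median-ratio scaling the genes called higher and lower in CD45+ against CD45- cells were 3693 and 2986 in tumor-bearing mice, 3312 and 2949 in anemia and 3381 and 2837 in neonates, against 5785 and 1256, 5421 and 1306, and 5718 and 1208. Quantile normalization gave 2682 and 3165, 2725 and 3054, and 2748 and 2930. For neonatal CD45+ cells against MDSC (2060 and 854) these scalings gave 1246 and 1498, and 1306 and 1497. For tumor CD45+ cells against MDSC (903 and 206) they gave 556 and 581, and 422 and 393. That comparison also gave 564 and 430 with 10 added, 58 lower with 0.1 added, 96 lower without haemoglobin genes, and 218 and 20 from its own 6 libraries. Neonatal against tumor CD45+ cells (544 and 288) gave 972 higher without the filter, 166 lower with 0.1 added and 116 and 24 from 6 libraries. Without replicate 3 in every group it gave 1145 and 1036, neonatal against anemia CD45+ cells (1329 and 1104) gave 2192 and 1944, and neonatal CD45+ cells against MDSC gave 1371 lower. The cause was not tested. Leaving out 1 library at a time, counts ranged from 4964 to 6052 higher and 1107 to 1314 lower for tumor CD45+ against CD45-, 4523 to 5958 and 1069 to 1336 for anemia, and 5048 to 5977 and 1027 to 1256 for neonates. Neonatal against tumor CD45+ cells ranged from 351 (without tumor CD45+ replicate 2) to 815 and from 138 (without neonatal CD45+ replicate 2) to 430, the highest counts being without tumor CD45+ replicate 3. Neonatal against anemia CD45+ cells ranged from 948 to 1476 and from 704 (without neonatal CD45+ replicate 2) to 1233, and neonatal CD45+ cells against MDSC from 1517 to 2353 and 618 to 931. Tumor CD45+ cells against MDSC ranged from 447 to 1048 and 54 to 283, the lowest being without tumor CD45+ replicate 3. With the replicate number as a block the counts were 6019 and 1354, 5627 and 1389, 5935 and 1304, 630 and 333, 1526 and 1359, 2359 and 973, and 1106 and 257 in the order tumor, anemia and neonatal CD45+ against CD45-, neonatal against tumor CD45+, anemia CD45+ and MDSC, and tumor CD45+ against MDSC. Fits of 6 libraries gave no value for a primary granule gene that the filter removed there. Depth is unknown, so levels under 1 cannot be given a counting error.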

Other observations

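Cebpa, which encodes a C/EBP factor of granulocyte development, had values that split by replicate number in 3 groups. Cebpa was listed at 0 in replicates 1 and 2 of tumor CD45+, neonatal CD45+ and MDSC and stood at 7.23, 18.6 and 7.23 in replicate 3 of these groups. Cebpe, which encodes another such factor, stood at 1.69, 0.533 and 7.51 in tumor CD45+ cells. It did not reach 1 in 3 libraries and was not tested, so it was under 1 in every library of the other groups. The primary granule genes of tumor CD45+ cells were lowest in replicate 3. Csf1r, the macrophage colony-stimulating factor receptor, stood at 23.6, 22.0 and 162 in tumor CD45+ cells and at 223, 172 and 246 in neonatal CD45+ cells, so that tumor CD45+ replicate 3 lay nearer to the neonatal libraries than to its own group.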
